A study of Rattus norvegicus with 12 samples.

Results

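The growth hormone, prolactin and insulin-like growth factor (IGF) axis of the rat kidney was followed through 10 genes: Ghr, Prlr, Igf1, Igf1r, Igfbp1, Igfbp3, Igfbp4, Igfals, Socs2 and Stat5b. A probe was taken where its RefSeq transcript belonged to a listed gene, which gave 18 of the 27460 probes with a gene symbol, for 10 of 15284 genes. Ghr had 4 probes, Igf1 and Igfbp3 had 3 each, Igfbp4 had 2, and each of the other 6 genes had 1. Every one of the 18 probes was well above background on all 12 arrays, so no member depended on the filter for dim probes. Renal cortex came from 12 male Sprague-Dawley rats, bought at 5 weeks of age and given corn oil or bromodichloromethane (BDCM) at 200 mg/kg/day over 4 weeks. BDCM is a trihalomethane that forms when drinking water is chlorinated. The rats were bled 24 h after the last dose under CO2-O2 (experiment B92) or under isoflurane (experiment B103). This gave 4 groups of 3: CO2-O2 oil, CO2-O2 BDCM, isoflurane oil and isoflurane BDCM, with 1 array per animal. The experiments were run on separate slides and scanned on separate days, so the anaesthetic, the experiment and the slide cannot be told apart.

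Growth hormone and prolactin act through receptors of the cytokine family, which have no kinase of their own and work through JAK2 and the transcription factor STAT5. In liver, STAT5b switches on Igf1 and Igfals together with Socs2 and Cish, whose products damp the receptor signal. IGF-I then acts through its receptor tyrosine kinase, and most of it in blood is carried in a complex with IGFBP-3 and the acid-labile subunit that Igfals encodes. Both receptors are made in the proximal tubule, and the kidney makes IGF-I and several binding proteins of its own. Igfbp1 is a textbook insulin-repressed and stress-induced gene.

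Levels are log2 scaled signals: the log2 of the processed intensity over that array's 75th percentile, so that 0 is the 75th percentile. Probes differ in brightness, so each probe is set against itself and never against another probe. With 3 arrays per group, their number limits the precision of each mean. In whole cortex, fewer cells of a type and less RNA per cell cannot be told apart.

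The promoters of both genes that changed furthest in opposite directions, Igfbp1 and Prlr, are shown because each holds a motif tied to this axis. Of the 10 genes, 9 had an entry in the RefSeq promoter table (assembly GRCr8), with 10 promoters in all, each reaching from 250 bases before the start to 50 bases after it. The Igfbp1 promoter lies at chr14:86261027-86261326, plus strand, with CAAAACA, the core of the insulin response element, in capitals. A Prlr promoter lies at chr2:60909409-60909708, plus strand, with a match to TTCNNNGAA, the letters that STAT5 dimers recognise, in capitals.
Igfbp1: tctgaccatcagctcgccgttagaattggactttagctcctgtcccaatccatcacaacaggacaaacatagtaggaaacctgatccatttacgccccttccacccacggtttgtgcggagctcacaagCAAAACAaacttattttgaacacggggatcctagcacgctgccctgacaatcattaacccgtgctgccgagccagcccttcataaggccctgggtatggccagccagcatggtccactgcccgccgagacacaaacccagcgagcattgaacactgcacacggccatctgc
Prlr: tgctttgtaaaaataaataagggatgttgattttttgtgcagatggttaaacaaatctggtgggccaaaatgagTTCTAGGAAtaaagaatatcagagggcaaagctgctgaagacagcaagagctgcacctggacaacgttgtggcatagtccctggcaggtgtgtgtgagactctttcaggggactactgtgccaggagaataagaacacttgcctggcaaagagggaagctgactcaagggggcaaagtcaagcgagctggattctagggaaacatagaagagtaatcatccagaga
The first base of the motif stands at position -121 from the Igfbp1 start and at -176 from the Prlr start. Both strands were searched. CAAAACA, which reads TGTTTTG on the other strand, was found in 3 of the 10 promoters, those of Igfbp1 and Igf1 and the other Prlr promoter, and in 6.28% of 33469 promoters of this length. TTCNNNGAA was found in 1 of the 10 and in 8.87% of all promoters. TGATGNAAN, an amino acid response motif, was found in 0 of the 10 and in 3.97% of all promoters. Each promoter shown holds 1 match to these motifs, so no matches overlap. The matches describe letters in a window, and no binding was measured.

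Averaged over both experiments, BDCM lowered 5 of the 10 transcripts and raised 1. Igfbp1 rose 3.35-fold. Prlr fell 3.14-fold, Igfbp4 fell 3.04-fold and Igfbp3 fell 1.69-fold. Igfals and Ghr fell by smaller factors, 1.47-fold and 1.46-fold. Igf1, Igf1r, Socs2 and Stat5b did not pass the test. Counts are by the lead probe, the brightest of each gene, and a gene passed at an adjusted p below 0.05 in limma's moderated test over 43275 probes. BDCM moved much of the transcriptome: 40.3% of the 12208 named genes tested passed in this comparison, with 19.4% higher and 20.9% lower. The 6 of 10 members that passed are to be read against that share. The median difference was -0.55 over the 10 lead probes and -0.02 over all named genes.

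**Figure D1:**
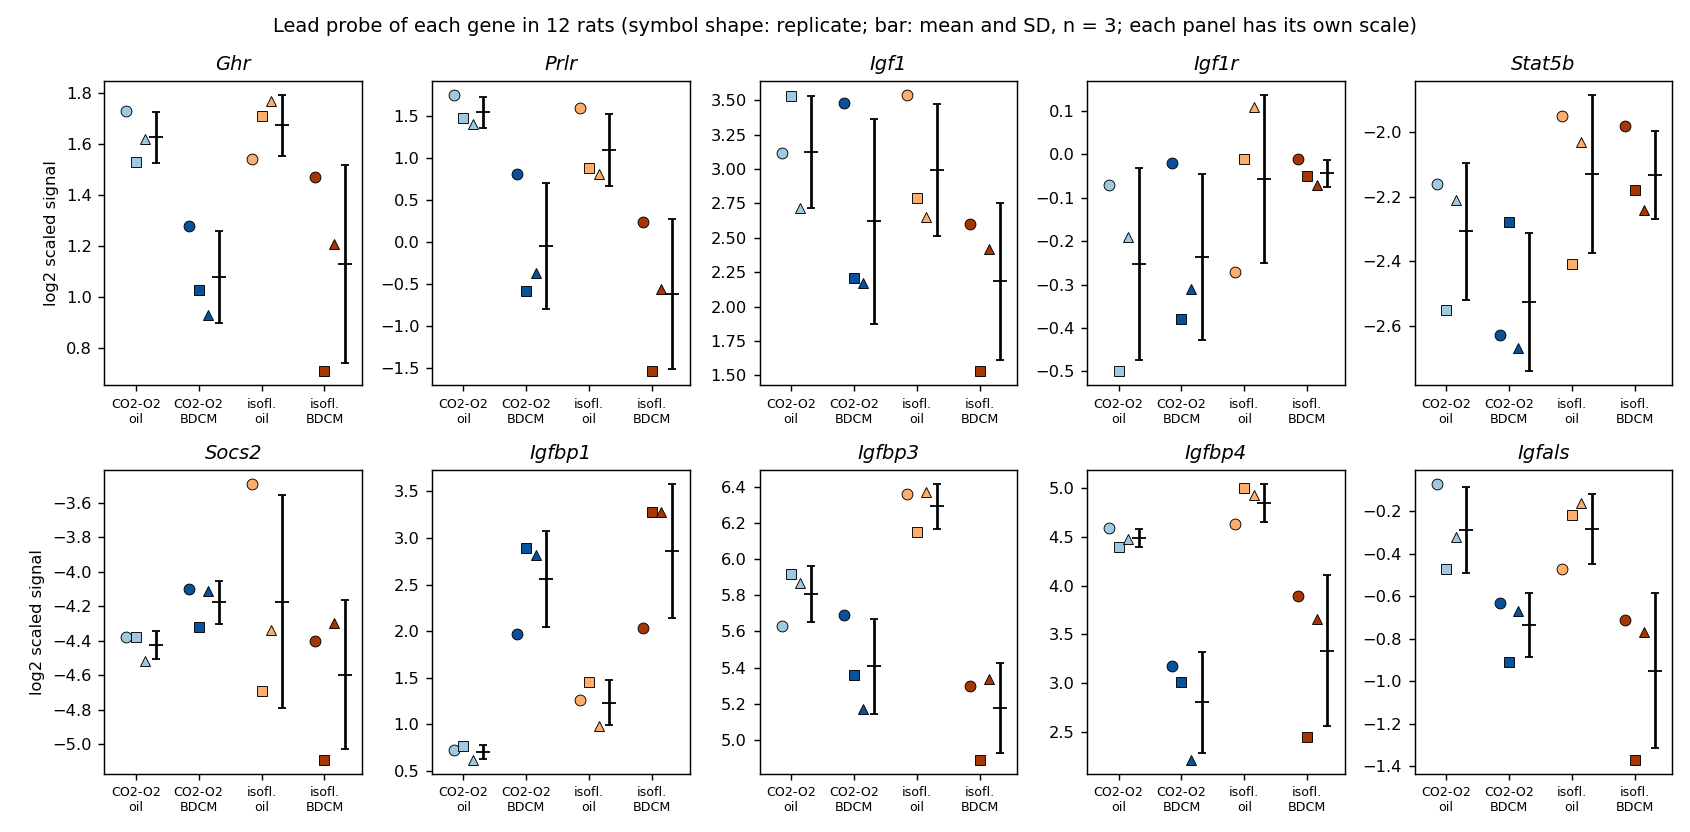
Log2 scaled signal (vertical axis, a separate scale in each panel) of the lead probe of each gene in the 12 rats by group (horizontal axis). Symbols mark replicates 1 (circle), 2 (square) and 3 (triangle), and bars give the mean and SD of 3 animals. Igfbp1 ran up to 1.46 in oil rats and from 1.97 in BDCM rats, and Igfbp4 ran from 4.40 in oil rats and up to 3.89 in BDCM rats.

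Prlr, the prolactin receptor, read 1.75, 1.47 and 1.40 in the CO2-O2 oil rats and 0.81, -0.58 and -0.37 in the CO2-O2 BDCM rats. In the isoflurane experiment its level was 1.59, 0.88 and 0.81 with oil and 0.24, -1.54 and -0.56 with BDCM. All 3 treated rats lay below all 3 controls in each experiment. The SD was 0.75 and 0.89 in the BDCM groups and 0.19 and 0.43 in the oil groups, so the treated rats were further apart than the controls. The difference was -1.59 ± 0.46 (SE; adjusted p = 0.0362, limma) under CO2-O2 and -1.72 ± 0.46 (adjusted p = 0.0213, limma) under isoflurane, and their mean was -1.65 ± 0.32 (adjusted p = 0.00289, limma). The CO2-O2 call did not survive the loss of any CO2-O2 rat other than BDCM rat 1 (adjusted p up to 0.115), while the mean passed under all 27 alternatives that kept the threshold. Under isoflurane the call was lost without BDCM rat 2 (adjusted p = 0.0768) or oil rat 1 (adjusted p = 0.0749), by limma.

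Ghr, the growth hormone receptor, read 1.73, 1.53 and 1.62 with oil and 1.28, 1.03 and 0.93 with BDCM under CO2-O2. Under isoflurane the oil rats read 1.54, 1.71 and 1.77 and the BDCM rats 1.47, 0.71 and 1.21. The groups did not overlap in either experiment, although BDCM rat 1 under isoflurane lay only just below the lowest control. The difference was -0.54 ± 0.17 in both experiments, with an adjusted p of 0.0503 under CO2-O2 and 0.0423 under isoflurane (limma), on either side of the threshold. The difference of these effects was 0.00 ± 0.24, with a 95% interval of -0.54 to 0.54. The isoflurane call was lost when any of 9 of the 12 rats was left out (adjusted p up to 0.119, limma), and the CO2-O2 difference passed without CO2-O2 BDCM rat 1, isoflurane BDCM rat 1 or isoflurane BDCM rat 2. The mean was -0.54 ± 0.12 (adjusted p = 0.00586, limma; 95% interval -0.81 to -0.27). The 3 other Ghr probes gave mean differences of -0.49, -0.44 and -0.40, of which the last did not pass (adjusted p = 0.0744, limma).

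Igf1r, the receptor tyrosine kinase for IGF-I, lay between -0.50 and 0.11 in all 12 rats, and its groups overlapped in both experiments. Its mean difference was 0.01 ± 0.10, and the 95% interval of -0.21 to 0.23 bounds the change on this probe.

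Stat5b, the transcription factor of the growth hormone receptor, read -2.16, -2.55 and -2.21 with oil and -2.63, -2.28 and -2.67 with BDCM under CO2-O2. The isoflurane levels were -1.95, -2.41 and -2.03 with oil and -1.98, -2.18 and -2.24 with BDCM. Oil and BDCM rats overlapped in each experiment, and the mean difference was -0.11 ± 0.11 (95% interval -0.36 to 0.14). Socs2, a STAT5-induced inhibitor of the growth hormone receptor, read -4.38, -4.38 and -4.52 with oil and -4.10, -4.32 and -4.11 with BDCM under CO2-O2, where every treated rat lay above every control. Under isoflurane it read -3.49, -4.69 and -4.34 with oil and -4.40, -5.09 and -4.30 with BDCM, and the groups overlapped. Neither difference passed (0.25 ± 0.28 and -0.43 ± 0.28, adjusted p = 0.584 and 0.302, limma), and the difference between them was -0.67 ± 0.40 (adjusted p = 0.944, limma).

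Igf1, the ligand, read 3.12, 3.53 and 2.72 with oil and 3.48, 2.21 and 2.17 with BDCM under CO2-O2. Under isoflurane the oil rats read 3.54, 2.79 and 2.65 and the BDCM rats 2.60, 1.53 and 2.42. All isoflurane BDCM rats lay below their controls, whereas CO2-O2 BDCM rat 1 lay among the controls. The mean difference was -0.66 ± 0.29 (adjusted p = 0.101, limma), with a 95% interval of -1.30 to -0.01, and the 2 other probes gave -0.59 and -0.49 and did not pass. Without CO2-O2 BDCM rat 1 the mean difference was -0.87 ± 0.25 and passed (adjusted p = 0.0206, limma), so this 1 animal decided the call. The highest Igf1 levels among controls, 3.53 and 3.54, were in CO2-O2 oil rat 2 and isoflurane oil rat 1. The same rats had the highest levels of Cish, another STAT5-induced inhibitor, at 1.27 and 1.18, while the other 10 rats lay between -1.27 and 0.26. Isoflurane oil rat 1 also had the highest Socs2 level of all 12, but CO2-O2 oil rat 2 read -4.38, level with CO2-O2 oil rat 1. Igfals went the other way, as both rats had the lowest level of their oil group, -0.47 in each. A shared cause of these levels was not tested. CO2-O2 BDCM rat 1 had a high Igf1 level at a low Cish level, -1.11. Cish itself differed by -0.13 ± 0.50 between BDCM and oil (adjusted p = 0.857, limma).

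Igfbp1, the insulin-repressed IGF binding protein whose promoter is shown above, was the member that rose. It read 0.73, 0.77 and 0.62 with oil and 1.97, 2.89 and 2.82 with BDCM under CO2-O2. With isoflurane the levels were 1.26, 1.46 and 0.98 with oil and 2.03, 3.28 and 3.28 with BDCM. The lowest treated rat lay above the highest control in each experiment. The difference was 1.85 ± 0.34 under CO2-O2 (3.61-fold; adjusted p = 0.00474, limma) and 1.63 ± 0.34 under isoflurane (3.10-fold; adjusted p = 0.00652, limma).

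Igfbp3, the main carrier of IGF-I in blood, lies next to Igfbp1 on chromosome 14 of GRCr8 with 0 annotated genes between them, and it went the other way. It read 5.63, 5.92 and 5.87 with oil and 5.69, 5.36 and 5.17 with BDCM under CO2-O2, where the groups overlapped. Under isoflurane it read 6.36, 6.15 and 6.37 with oil and 5.30, 4.89 and 5.34 with BDCM, with a wide gap between the groups. The difference was -1.12 ± 0.16 under isoflurane (2.17-fold lower; adjusted p = 0.000843, limma) and -0.40 ± 0.16 under CO2-O2 (adjusted p = 0.107, limma; 0.0392 without BDCM rat 1). The effects differed by -0.71 ± 0.23, with an unadjusted p of 0.01 and an adjusted p of 0.944 (limma), so a difference between the experiments was not shown. All 3 Igfbp3 probes fell on average, by 0.76, 0.84 and 0.81 on the log2 scale, and 1 of them also passed under CO2-O2 (-0.55, adjusted p = 0.0488, limma). That probe disagreed with the other 2 on the comparison of the experiments in oil rats, at -0.27 against 0.48 and 0.46.

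Igfbp4, a binding protein that mostly restrains IGF action, read 4.59, 4.40 and 4.48 with oil and 3.18, 3.01 and 2.21 with BDCM under CO2-O2. Under isoflurane it read 4.63, 5.0 and 4.93 with oil and 3.89, 2.45 and 3.66 with BDCM. Every treated rat was below every control, and the treated rats spread more widely (SD 0.52 and 0.78 against 0.09 and 0.20). The difference was -1.69 ± 0.35 under CO2-O2 (3.23-fold lower; adjusted p = 0.00891, limma) and -1.52 ± 0.35 under isoflurane (2.87-fold lower; adjusted p = 0.0112, limma). The other Igfbp4 probe gave a mean of -1.49 beside -1.61.

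Igfals, the acid-labile subunit of the IGF carrier complex, read -0.07, -0.47 and -0.32 with oil and -0.63, -0.91 and -0.67 with BDCM under CO2-O2. In the isoflurane rats it was -0.47, -0.22 and -0.16 with oil and -0.71, -1.37 and -0.77 with BDCM. The groups were apart in both experiments, and the difference passed under isoflurane (-0.66 ± 0.18, adjusted p = 0.0231, limma) and not under CO2-O2 (-0.45 ± 0.18, adjusted p = 0.108, limma; 0.0339 without isoflurane BDCM rat 2). The isoflurane call was lost without BDCM rat 2 (adjusted p = 0.0639), oil rat 2 (adjusted p = 0.069) or oil rat 3 (adjusted p = 0.0736), by limma. The mean was -0.56 ± 0.13 (adjusted p = 0.00658, limma).

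**Figure D2:**
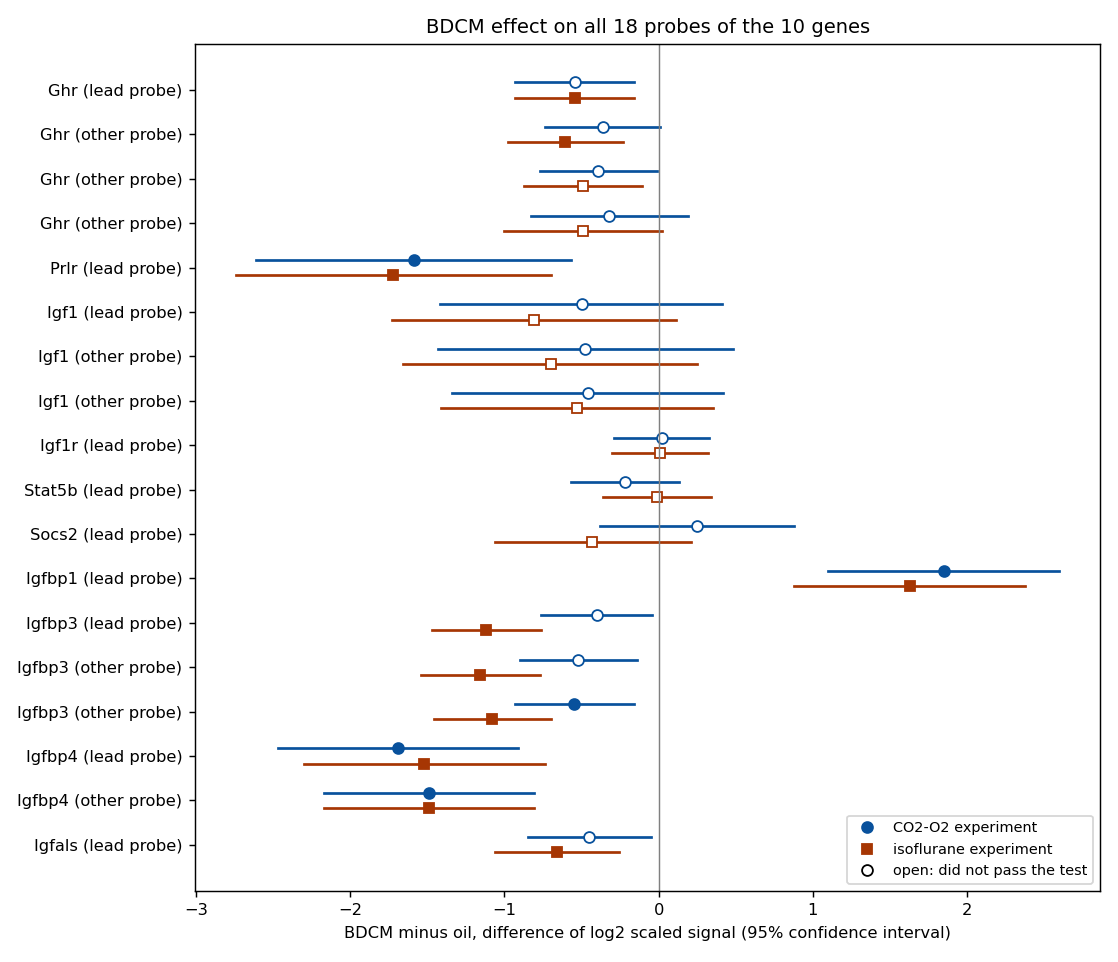
BDCM minus oil in log2 scaled signal (horizontal axis, with 95% confidence intervals from limma) for the 18 probes of the 10 genes, with a circle for the CO2-O2 experiment and a square for the isoflurane experiment. Filled symbols passed an adjusted p of 0.05. The Igfbp1 interval lies wholly above 0 and both Igfbp4 probes lie wholly below 0 in each experiment, while no Igf1 symbol is filled.

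By experiment, the lead probes gave 1 higher and 2 lower calls of 10 under CO2-O2, where 19.6% of all named genes passed (9.52% higher, 10.1% lower), and 1 higher and 5 lower under isoflurane, where 27.3% passed (13.5% higher, 13.8% lower). Under CO2-O2 the calls were Igfbp1, Prlr and Igfbp4, and under isoflurane Igfbp3, Igfals and Ghr were added. The counts rest partly on single rats: without isoflurane BDCM rat 2 they were 5 under CO2-O2 and 3 under isoflurane, and without CO2-O2 BDCM rat 1 the CO2-O2 count was 5. The larger isoflurane count was not a measured difference of response. No member passed the test of the difference between the BDCM effects, in which 0% of all named genes passed and 3.93% had an unadjusted p below 0.05. Of the 10 members, 1 (Igfbp3) had an unadjusted p below 0.05 there. Groups did not overlap in both experiments for 1 member above controls (Igfbp1) and for 4 below (Ghr, Prlr, Igfbp4 and Igfals), against 14.7% and 14.3% of named genes.

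Within each experiment, treatment was partly tied to slide and scan day. Slide 2, scanned on a day of its own, held only CO2-O2 BDCM rats 1 and 3. Slide 3 held only isoflurane oil rats, and slide 5, also with its own scan day, only isoflurane BDCM rat 3. Some arrays of both treatments shared a slide, and the direction held there for each gene that passed on average. On slide 1, with 1 CO2-O2 BDCM rat and 3 oil rats, the differences were -2.12 for Prlr, -1.48 for Igfbp4 and 2.18 for Igfbp1. Ghr, Igfbp3 and Igfals differed there by -0.60, -0.44 and -0.62. On slide 4, with 2 isoflurane BDCM rats and 1 oil rat, the values were -1.47 for Prlr, -1.76 for Igfbp4 and 1.68 for Igfbp1, and -0.68, -1.28 and -0.87 for Ghr, Igfbp3 and Igfals. With slide as a fixed block the mean effect passed for Prlr, Igfbp1, Igfbp3, Igfbp4 and Igfals (adjusted p = 0.0451, 0.0108, 0.0177, 0.0301 and 0.0332, limma) and did not pass for Ghr (adjusted p = 0.0632, limma). Within single experiments this block left Igfbp1 under CO2-O2 (adjusted p = 0.0378, limma) and Igfbp3 under isoflurane (adjusted p = 0.0338, limma) as the only calls. It ended both Igfbp4 calls (adjusted p = 0.138 and 0.117, limma) and both Prlr calls (adjusted p = 0.106 and 0.265, limma). It also ended the isoflurane calls of Igfbp1 (1.68 ± 0.51, adjusted p = 0.0928, limma), Ghr (adjusted p = 0.207, limma) and Igfals (adjusted p = 0.108, limma). With scan day as the block, an alternative chosen after seeing the data, the CO2-O2 calls of Igfbp4 (adjusted p = 0.103, limma) and Prlr (adjusted p = 0.0795, limma) and the isoflurane call of Ghr (adjusted p = 0.0824, limma) were lost.

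Most markers of the proximal tubule fell with BDCM, as did some of the members. Of 12 such markers, transporters and brush border proteins among them, 11 fell and 0 rose in the mean of both experiments, with a median difference of -0.74, and all 12 were well above background on every array. The log2 of their summed scaled signal ran from 10.62 to 10.64 in CO2-O2 oil and from 10.69 to 10.76 in isoflurane oil. It ran from 9.76 to 10.18 in CO2-O2 BDCM and from 9.63 to 10.19 in isoflurane BDCM. In each experiment BDCM rat 1 had the highest sum of its group (10.18 and 10.19). In both experiments that rat also had the highest level of its group for Ghr, Prlr, Igf1, Igf1r, Igfbp4 and Igfals, and the lowest Igfbp1. Some of these gaps were small, as the isoflurane BDCM rats spanned only 0.06 for Igf1r. Igfbp3, Socs2 and Stat5b did not share this order in both. How many of all named genes share it was not counted, so the order cannot be called particular to these members. Of 5 glomerular markers 4 fell and of 5 leukocyte markers 0 passed, and of 6 collecting duct markers 2 fell and 1 rose. Of 6 markers of stroma and smooth muscle 3 fell on average, 4 under isoflurane and 0 under CO2-O2, with medians of -0.38, -0.52 and -0.21. Of all named genes 20.9% fell and 19.4% rose on average, and 13.8% fell under isoflurane and 10.1% under CO2-O2. The shorter lists are too small to be set apart from those shares. The part of these marker shifts in the results for the members was not tested.

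**Figure D3:**
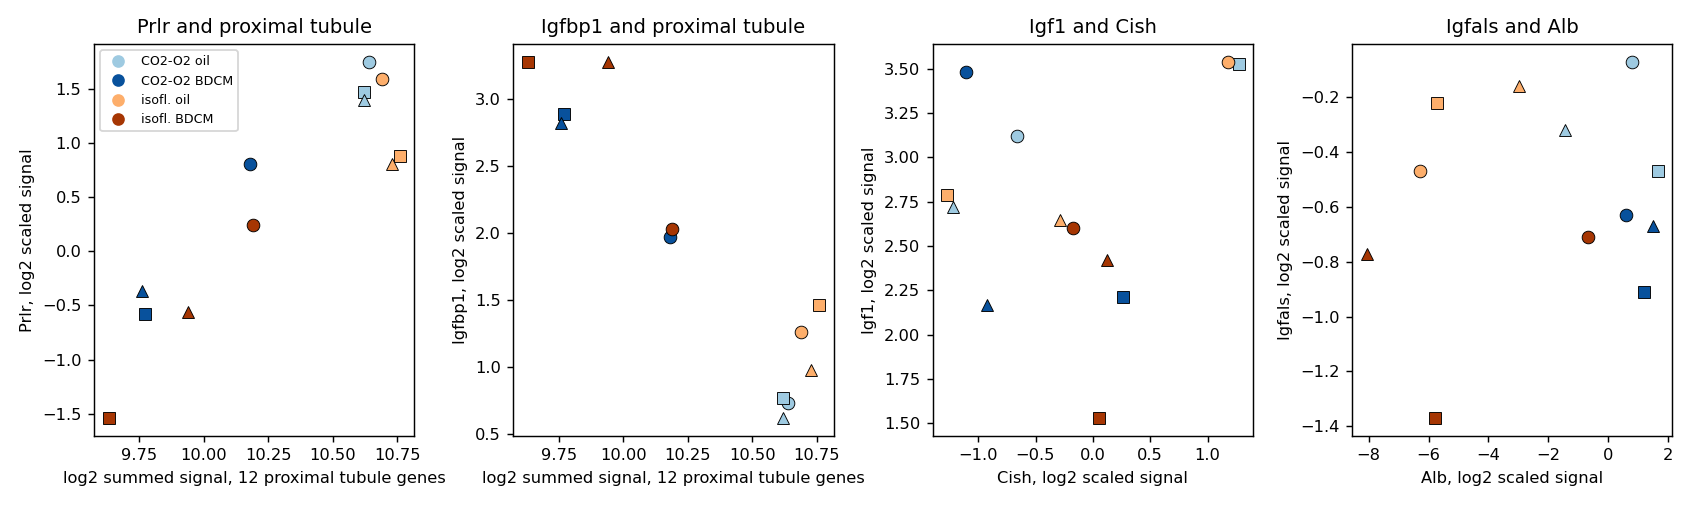
Log2 levels in the 12 rats, coloured by group, with circles, squares and triangles for replicates 1, 2 and 3. The panels set Prlr and Igfbp1 against the log2 summed signal of 12 proximal tubule markers, Igf1 against Cish, and Igfals against Alb (all axes in log2 scaled signal). The treated rats with proximal tubule sums of 10.18 and 10.19 had Prlr levels of 0.81 and 0.24, above the other 4 treated rats, and Igfbp1 levels of 1.97 and 2.03, below them.

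Several members are better known as liver transcripts, and liver markers were present in some samples. All 18 hepatocyte markers were on the array, with 8 to 17 of them well above background per sample. Cps1 and Tat were not well above background on all arrays of any group. The log2 of their summed signal ran from 4.18 to 4.91 in CO2-O2 oil, 4.81 to 5.06 in CO2-O2 BDCM, 4.04 to 4.14 in isoflurane oil and 4.15 to 4.46 in isoflurane BDCM. In the mean of both experiments 4 of the 16 tested rose and 2 fell, where 19.4% of all named genes rose and 20.9% fell. The sum leans on its brightest markers, Tf and Apoc3, and both changed with BDCM, by 1.00 and -0.88 on average. It is therefore no direct measure of liver RNA. Alb, the defining liver transcript, read 0.79, 1.66 and -1.44 in CO2-O2 oil and 0.60, 1.19 and 1.49 in CO2-O2 BDCM, well above background in all 6. The part of liver transcripts in the members' results was not tested. Under isoflurane, Alb was well above background in oil rat 3 and BDCM rat 1 alone. Without those rats the isoflurane call of Igfals was lost (-0.72 ± 0.22, adjusted p = 0.0516, limma). The difference itself was no smaller than with all rats (-0.66 ± 0.18). The call was also lost without isoflurane oil rat 2 or BDCM rat 2 alone, whose Alb was not well above background. Its loss is therefore no test of liver transcripts.

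Between the experiments, with treatment held fixed, no lead probe passed. Among oil rats 8.58% of named genes passed, and among BDCM rats 13.5%. Igfbp3 came nearest in oil rats, at 0.48 ± 0.16 higher under isoflurane (adjusted p = 0.0832, limma), with all isoflurane rats above all CO2-O2 rats on the lead probe. Stat5b was 0.39 ± 0.16 higher under isoflurane among BDCM rats (adjusted p = 0.119, limma), again without overlap. All isoflurane rats lay above all CO2-O2 rats for 3 of 10 members with oil and 1 of 10 with BDCM, against 19.2% and 16.1% of named genes. Of all 18 probes 1 passed, the Igfbp3 probe that disagreed with its partners, at -0.80 among BDCM rats (adjusted p = 0.0135, limma), where 16.4% of all probes passed.

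Other genes of the growth hormone, IGF and insulin pathway were taken from a list of 64, of which 58 were on the array and 52 were tested. In the mean of both experiments 6 rose, 17 fell and 29 did not pass, with a median difference of -0.11, and 40.3% of all named genes passed there. The counts include Stc2, Ins2 and Mup4, which entered the fit only through the groups where they are high. Of 6 tested binding proteins and their regulators 2 rose and 2 fell. Igfbp5, a binding protein held in the extracellular matrix, fell by 1.09 ± 0.09 on the log2 scale (adjusted p = 9.69e-06, limma). It read -0.21, -0.25 and 0.01 in CO2-O2 oil, -1.12, -1.26 and -1.18 in CO2-O2 BDCM, 0.32, 0.32 and 0.18 in isoflurane oil, and -0.60, -1.12 and -0.88 in isoflurane BDCM, with no overlap. Igfbp7 fell by 0.56 ± 0.08 (adjusted p = 0.000315, limma), while Igfbp2 did not pass (0.11 ± 0.09). Igfbp6 passed on average (0.35 ± 0.10, adjusted p = 0.02, limma), with 0.65 ± 0.14 under CO2-O2 (adjusted p = 0.0109, limma) and 0.04 ± 0.14 under isoflurane (adjusted p = 0.862, limma). The difference between its effects did not pass (-0.61 ± 0.20, adjusted p = 0.944, limma). Stc2, stanniocalcin 2, a stress-induced inhibitor of the protease that frees IGF from IGFBP-4, was not well above background in any oil rat and was well above it in all 6 BDCM rats. Its signal with BDCM was at least 4.48-fold higher under CO2-O2 and at least 6.36-fold higher under isoflurane. It entered the fit through the BDCM groups, where it is high, so it had to differ, and these values are a description with no test. The bounds set each dim signal no lower than the lowest signal well above background on its array.

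Of 4 tested ligands 3 are counted as lower. Gh1 fell by 0.30 ± 0.11 (adjusted p = 0.0473, limma) and Igf2 by 0.33 ± 0.10 (adjusted p = 0.0228, limma). Growth hormone and insulin are made in the pituitary and the pancreas. Ins2, the other ligand counted, was well above background in all 6 oil rats but in 2 of 3 and 1 of 3 BDCM rats under CO2-O2 and isoflurane. It entered the fit only through the oil groups, where it is high. Its measured signal, lower by 0.96 with BDCM, is therefore a description with no test. Gh1 and Igf2 did not pass in either experiment alone. Among other receptors, Ghrhr, the receptor of the hypothalamic hormone that releases growth hormone, fell by 1.55 ± 0.19 (adjusted p = 0.000149, limma). Insrr, the insulin receptor-related receptor that senses alkaline pH in kidney, fell by 0.98 ± 0.13 (adjusted p = 0.000258, limma), and Insr rose by 0.25 ± 0.09 (adjusted p = 0.0436, limma). The kinase and STAT arm changed in few members: of 13 tested, Socs5 rose by 0.34 ± 0.05 (adjusted p = 0.000412, limma), Socs3 fell by 0.34 ± 0.10 (adjusted p = 0.0254, limma; -0.16 under CO2-O2 and -0.52 under isoflurane) and 11 did not pass. Jak2 and Stat5a gave -0.10 and -0.11. Downstream of the IGF and insulin receptors, 2 of 19 rose and 7 fell. Pck1, the gluconeogenic enzyme of the proximal tubule, fell by 1.31 ± 0.24 (adjusted p = 0.00216, limma), and its partner G6pc1 fell by 0.86 ± 0.15 (adjusted p = 0.00143, limma). Both are insulin-repressed genes in liver, as Igfbp1 is, and here they fell while Igfbp1 rose. The part of insulin or of the proximal tubule marker shifts in these changes was not tested.

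Cyp2c11, the cytochrome that the male pulse pattern of growth hormone maintains in rat liver, fell the furthest of the list. It read 1.71, 0.76 and 2.31 in CO2-O2 oil and -2.71, -4.05 and -3.75 in CO2-O2 BDCM. Under isoflurane it read -1.82, -0.07 and 1.70 with oil and -3.60, -4.63 and -4.76 with BDCM. The groups were apart in each experiment, with controls that spread widely under isoflurane. The mean difference was -4.68 ± 0.55 (adjusted p = 0.000133, limma). Cyp2c11 has close relatives in the genome, and cross-hybridisation of its probe was not tested. Of the 6 tested male-pattern targets, 2 fell and 0 rose. The other was Mup4, which was well above background in CO2-O2 oil rats alone and at least 6.08-fold lower with BDCM there. It entered the fit through that group, so this too is a description with no test. With treatment held fixed, the liver marker sum was higher in CO2-O2 rats than in isoflurane rats, as given above. The part of liver transcripts in the Mup4 result was not tested.

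**Figure D4:**
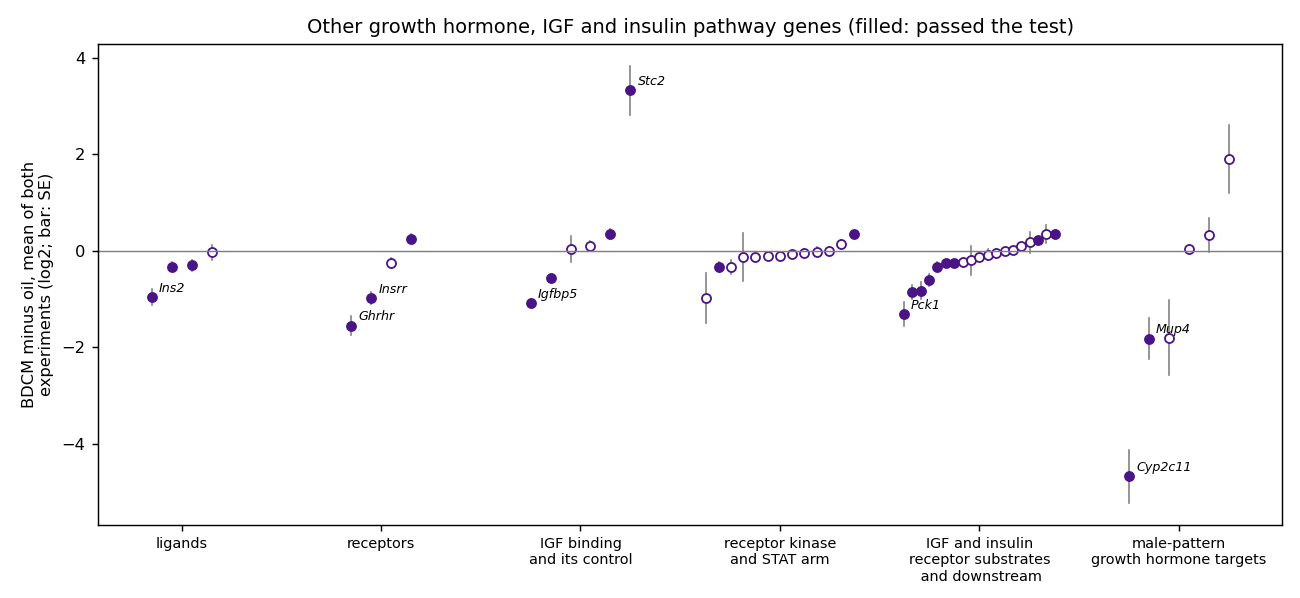
Mean BDCM effect over both experiments (vertical axis, log2 difference of scaled signal, bars SE) for the 52 tested pathway genes outside the 10 members, grouped by role along the horizontal axis. Filled symbols passed an adjusted p of 0.05, which 6 genes above 0 and 17 below it did. Among them, Stc2, Ins2 and Mup4 entered the fit only through the groups where they are high. Stc2 (measured difference, with oil signals not well above background) and Cyp2c11 stand at the ends, at 3.33 and -4.68, and the kinase and STAT arm lies mostly near 0.

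The genes most like a member were those with the smallest root mean square difference of centred log2 levels over the 12 rats, among 12207 other named genes. For Ghr these were Abca2, Gchfr and Mx2 (0.07, 0.08 and 0.08, against a median of 0.39 over all genes). For Prlr they were Ovol1, Nat8f1 and AKR1C3l1 (0.29, 0.31 and 0.32, against 1.02), and for Igfbp1 Isyna1, Lgals3 and Cidea (0.24, 0.27 and 0.27, against 1.01). For Igf1 they were Amacr, Cidec and Id4 (0.28, 0.29 and 0.30, against 0.63). The fit was closer for Ghr, whose own levels had an SD of 0.34 over the rats, than for Prlr and Igfbp1, with SDs of 1.05 and 1.02. These levels share arrays and the treatment contrast, and the likeness is a description.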

How the data were processed

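Renal cortex RNA was labelled with Cy3 and hybridised to 1-colour Agilent arrays. The deposited scanner files give background-corrected intensity values. Agilent Feature Extraction, version 10.7, is named in the submitters' processing notes, and 10.7.1.1 stands in the file headers. The deposited table of values is a linear ratio of signal to each array's 75th percentile. Its 6 isoflurane columns match their own scanner files and its 6 CO2-O2 columns match another rat of the same group, with a median absolute log2 difference of at most 0.00088 per column, so rats are numbered here by scanner file.

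Each signal was divided by its array's 75th percentile before taking log2. Outlier spots (115 values) were left out, as were 84 spike-in probes. Probes well above background on all 3 arrays of a group (43275 of 61573) entered a limma fit (version 3.58.1, in R 4.3.3 with the package data.table, 1.17.8) with 1 mean per group over all 12 arrays and Benjamini-Hochberg adjustment over all probes. Symbols came from a RefSeq table of GRCr8 (27460 probes matched). Code was tested on simulated data. Figures used matplotlib 3.10.9 in Python 3.11.15. Alternatives changed the scaling, background correction, filter, probe choice, model, blocks, threshold, source and rats used.

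The members, pathway list and marker lists were chosen with earlier results of these data known. The genes written out above are the members, the pathway genes that passed or that define the axis, some markers, and the 3 genes most like Ghr, Prlr, Igf1 and Igfbp1. In the shares above, named genes are all 12208 genes with a symbol whose lead probe was tested.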

Additional observations from a re-analysis of the deposited data

How the results depend on the processing

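No called effect changed sign under any alternative. The mean over both experiments gave 6 calls in the main analysis and 5 to 7 under its 28 alternatives, and the difference between experiments gave 0 under all of its 28 alternatives. With 3 calls in the CO2-O2 comparison, quantile scaling gave 5, slide as a fixed block 1 and scan day as a fixed block 1, and leaving out each rat gave 2 to 5. With 6 calls under isoflurane, a threshold of 0.01 gave 2, slide as a fixed block 1 and a fit of only the groups compared 3, and leaving out each rat gave 3 to 6. With slide as a block, the CO2-O2 effect rests on 1 treated rat and the isoflurane effect on 1 control. Between experiments in oil rats, with 0 calls, array weights and the fit of only the groups compared each gave 1 (Igfbp3), and leaving out each rat gave 0 to 0. In BDCM rats, leaving out each rat gave 0 to 1 (Igfbp4, without isoflurane BDCM rat 2). The scan day block, the fit without both isoflurane rats whose albumin was well above background and the use of median spot signals for normexp were chosen after seeing the data.

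The labels number the rats 1 to 3 in each group, but same-numbered rats did not deviate together (correlations of -0.03 to 0.06). A replicate block gave 3, 5 and 6 calls under CO2-O2, under isoflurane and on average, and ended the isoflurane call of Ghr (adjusted p = 0.0753, limma). It changed no other member call.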
